A study of Mus musculus with 9 samples.

Results

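The genes described here are 49 mouse genes that copy DNA or supply its building blocks, chosen by name from the roles of their products in origin licensing, the replisome and nucleotide synthesis, with earlier results of these data known. All 49 were found among the 37980 genes of the deposited table. Their expression was compared by RNA-seq between 4 NA MP and 5 WT MP samples. MPs are myeloid progenitors, the Lin-c-kit+Sca1- cells of bone marrow that give rise to granulocytes, monocytes, red cells and platelets, and 100000 of them were sorted for each sample. NA is the Nup98-Hoxa10hd fusion gene, in which part of the nuclear pore protein Nup98 is joined to the homeodomain of the transcription factor Hoxa10. In NA mice it was expressed from the Rosa26 locus after removal of a stop cassette by Vav-Cre, which is active throughout the blood system. By the methods, the recipients and the stem cell line behind the NA mice were C57BL/6, and the background of the Vav-Cre strain is not named there. All samples came from irradiated recipients of transplanted multipotent progenitors (MPPs). NA MPs were the Tdtomato+ cells of mice given NA MPPs, and WT MPs the CD45.2+ cells of mice given WT MPPs. Both were taken, by the labels, 3 months after transplantation, and the methods of the study place the sort later. The methods describe recipients as CD45.2+ and elsewhere mark WT donor cells as CD45.1+, which conflicts with a donor origin of the CD45.2+ WT MPs, so whether these were donor, helper or host cells cannot be told. Whether a sample was 1 mouse is not stated, and p-values measure the spread between these samples, which may in part be technical.

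The deposited values are gene counts estimated by RSEM and divided by a factor for each sample, and are called normalized counts here. The factors placed the depth between 5557718 reads in NA MP 1 and 8106140 reads in NA MP 4, with WT MPs between 6141707 and 7751471 reads, so that 3 reads, a floor for counting error only, equalled 2.48 to 3.60 normalized counts. The labels were checked on the partners of the fusion. Hoxa10 averaged 129 normalized counts in NA MPs and 8.05 in WT MPs, and Nup98 956 and 599. Kit, the receptor used in the sort, averaged 2964 normalized counts in NA MPs and 3039 in WT MPs, and Mpo, a granule enzyme of myeloid progenitors, 107675 and 103947. Among the members, NA MP 1, the shallowest library, was the lowest of its group for 26 of 49 genes.

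Before a cell copies its DNA, the origin recognition complex (ORC) marks the places where copying can start, and Cdc6 and Cdt1 load the ring of Mcm2 to Mcm7 there while geminin (Gmnn) holds Cdt1 back. In S phase, Cdc45 and the GINS proteins turn the ring into an active helicase, primase and the DNA polymerases copy the strands behind the sliding clamp Pcna, and Fen1 and Lig1 join the pieces of the lagging strand. Ribonucleotide reductase (Rrm1 and Rrm2), Tyms, Tk1 and Dut keep the deoxynucleotide pool filled. Many of these genes are known targets of E2F transcription factors, and myeloid progenitors are among the most actively dividing cells of the marrow.

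Replication genes were on balance lower in NA MPs than in WT MPs, by small amounts. Of the 49 genes, 22 fell, 1 rose (Gins2) and 26 did not pass an adjusted p of 0.05 (limma on log2 of the normalized count plus 1, Benjamini-Hochberg over 11987 genes). Over all tested genes 17.3% were called lower and 16.9% higher. Among the 7312 genes within the members' range of mean expression, 21.2% were lower and 15.9% higher, against 44.9% and 2.04% of the members. The median log2 fold change was -0.089 over the members and -0.0081 over all tested genes, and 40 of the 49 members had a negative value. The members' values ran from -0.53 for Ccne1 to 0.15 for Gins2, so that none changed by as much as 2-fold. In 17 members every NA MP sample lay below every WT MP sample and in 1 every NA MP sample lay above, where the shares over all tested genes were 12.8% and 13.5%. Summed over the 49 genes, the normalized count was 52365 ± 1009 in NA MPs (SD, n = 4) against 55220 ± 681 in WT MPs (SD, n = 5), 0.782% and 0.833% of all counts. In bulk RNA, fewer dividing cells and less of these transcripts in each cell cannot be told apart.

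**Figure D1:**
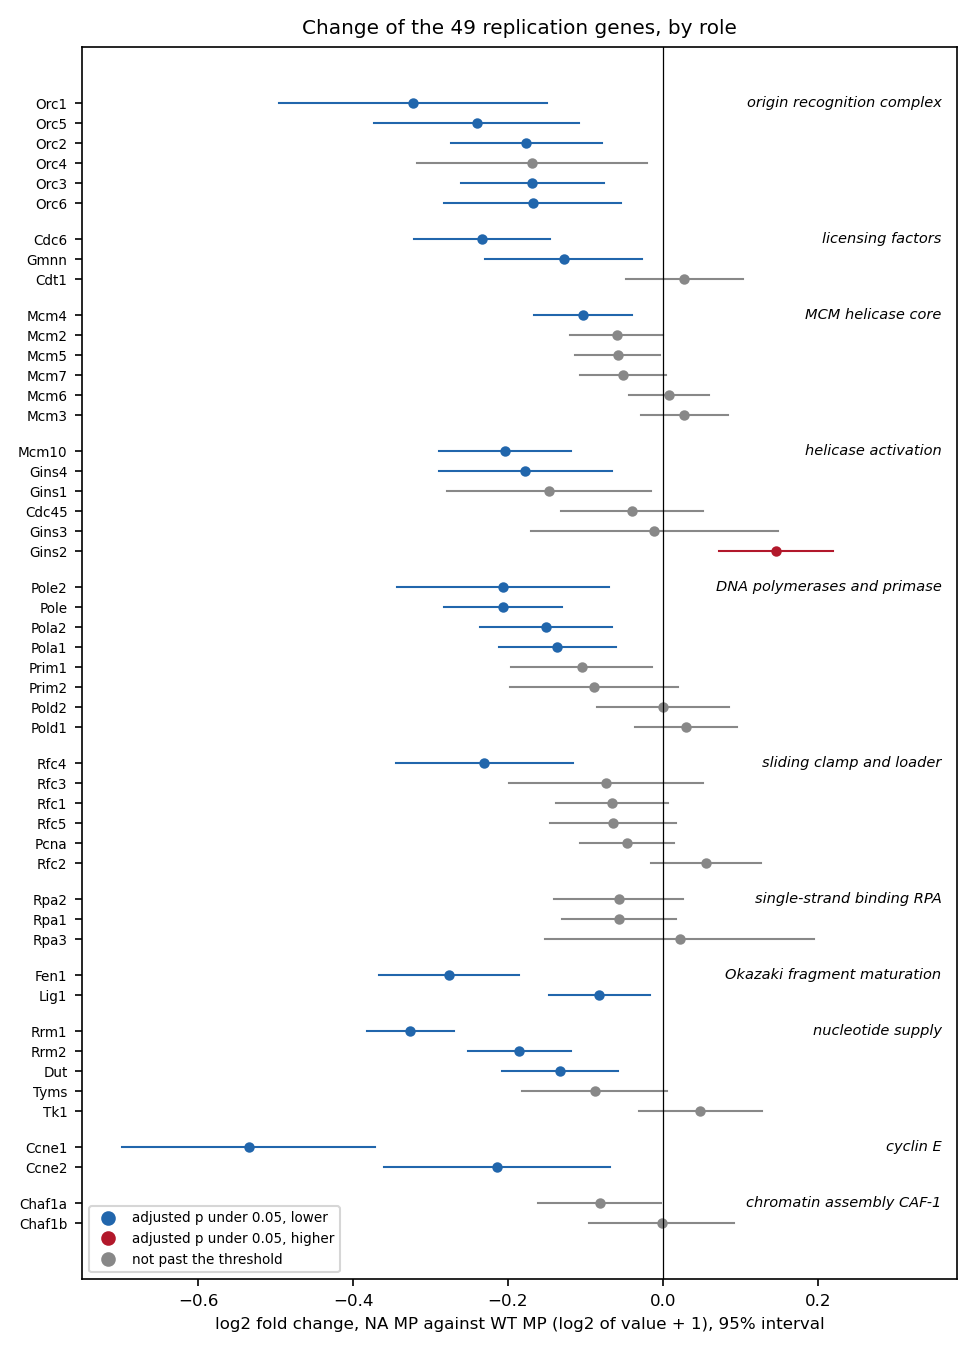
Log2 fold change of each of the 49 genes in NA MPs against WT MPs (x axis, log2 of the normalized count plus 1), grouped by role, with points for the estimate and lines for the 95% interval from limma. Blue marks the 22 genes called lower, red the 1 called higher and grey the 26 not past the threshold. Most points lie to the left of 0, with Ccne1 farthest.

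The sorted populations also differed in markers of other cells, some lower and some higher in NA MPs. The marker counts are to be read beside the 17.3% of all tested genes called lower and the 16.9% called higher. Of 12 tested erythroid markers 11 fell, and their summed normalized count was 6014 to 7649 in NA MPs and 11316 to 12530 in WT MPs. All 11 pro-B and pre-B cell markers rose, from a sum of 368 to 412 in WT MPs to 1430 to 2563 in NA MPs. Among mast cell and basophil markers 4 of 5 rose (2408 to 2811 against 1382 to 1510), and all 10 tested immediate early genes rose, with sums of 12220 to 26753 in NA MPs and 2541 to 5653 in WT MPs. Myeloid progenitor markers (4 of 7 higher), late neutrophil markers (3 of 6 higher, 1 lower), monocyte markers (3 of 5 higher, 1 lower) and megakaryocyte markers (1 of 6 higher, 2 lower) were mixed or moved less. Of the T cell list 1 of 6 genes could be tested and rose, with Cd3e and Cd3g listed at 0 in all samples. The mature B cell list summed to no more than 25.3 in any sample, with 1 of 4 genes tested, which rose. The part of these cells in the values below was not tested.

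Promoters of the members are shown because E2F words are a feature that many of them share and that the choice of genes did not use. In RefSeq windows on GRCm38.p6 that run from 250 bases before to 50 bases after a start, 40 of the 49 genes had a sequence. The E2F words searched on both strands were TTTCCCGC, TTTCGCGC, TTTGCCGC and TTTGGCGC, which can overlap one another on opposite strands. They occurred in 14 of the 40 members, 35.0%, and in 704 of 27025 genes with a window, 2.6%. The share was 35.3% of the 17 members called lower and 34.8% of the 23 members not called. CCAAT, the NF-Y word, occurred in 24 of the 40 members and in 41.1% of all genes, and the cell cycle words TTTGAA and TTCGAA in 7 of the 40 members and 21.7% of all genes. Split by call, CCAAT was in 41.2% of the 17 members called lower and in 73.9% of the 23 not called. The cell cycle words were in 5.88% and 26.1% of them. These differences were not tested. Below are the 160 bases before the RefSeq start, 5′ to 3′, of Pola1 (chrX:93632156-93632315, minus strand) and Cdc6 (chr11:98907991-98908150, plus strand), which fell, of Mcm5 (chr8:75109349-75109508, plus strand) and Mcm6 (chr1:128359706-128359865, minus strand), which were not called, and of Rrm1 (chr7:102441535-102441694, plus strand), which fell. Capitals mark E2F words, and in Rrm1, which holds none, the CCAAT words.
Pola1: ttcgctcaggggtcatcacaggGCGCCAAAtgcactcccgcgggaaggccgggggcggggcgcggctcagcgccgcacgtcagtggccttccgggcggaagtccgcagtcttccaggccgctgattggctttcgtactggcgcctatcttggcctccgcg
Cdc6: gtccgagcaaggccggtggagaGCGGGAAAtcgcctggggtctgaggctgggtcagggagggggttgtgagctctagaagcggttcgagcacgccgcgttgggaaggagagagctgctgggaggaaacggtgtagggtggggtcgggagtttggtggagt
Mcm5: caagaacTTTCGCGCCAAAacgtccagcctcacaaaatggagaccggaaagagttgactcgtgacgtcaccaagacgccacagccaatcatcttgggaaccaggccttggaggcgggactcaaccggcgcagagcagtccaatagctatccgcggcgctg
Mcm6: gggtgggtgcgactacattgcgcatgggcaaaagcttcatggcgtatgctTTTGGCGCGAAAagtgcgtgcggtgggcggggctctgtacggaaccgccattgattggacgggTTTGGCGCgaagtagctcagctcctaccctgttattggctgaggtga
Rrm1: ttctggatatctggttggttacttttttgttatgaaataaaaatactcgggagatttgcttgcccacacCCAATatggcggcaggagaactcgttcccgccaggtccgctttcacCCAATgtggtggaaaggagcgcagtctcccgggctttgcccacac
Mcm6 carries 3 E2F words in this stretch, the pair that overlaps starting 110 bases and 106 bases before the RefSeq start and another starting 47 bases before it. In Pola1 and in Cdc6 the word starts 138 bases before it. The first base of the gene in GENCODE M21, whose coordinates are given for genes below, is the RefSeq start in Pola1 and Rrm1, lies 60 bases downstream of it in Mcm5 and 41 in Mcm6, and 350 bases upstream of it in Cdc6, so that the Cdc6 stretch lies inside the GENCODE gene. A word is a match of letters and no evidence of binding.

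The origin recognition complex was the role with the most genes called. Of its 6 subunits 5 fell, with log2 fold changes from -0.17 to -0.32, where 17.3% of all tested genes were called lower. Orc1 (ENSMUSG00000028587, chr4:108579423-108614833, plus strand), the subunit made mainly in dividing cells, had normalized counts of 146, 134, 132 and 134 in NA MPs 1 to 4 and of 200, 174, 140, 177 and 171 in WT MPs 1 to 5. WT MP 3 lay within the NA MP range and the other WT MPs above it. The mean was 137 ± 6.47 (SD, n = 4) against 172 ± 21.5 (SD, n = 5), a log2 difference of -0.32 (standard error, SE, 0.0857, adjusted p = 0.00277 from limma). Orc5 fell by 0.24, Orc2 by 0.18, Orc3 by 0.17 and Orc6 by 0.17, and for Orc3, Orc5 and Orc6 the groups did not overlap. Of all tested genes, 12.8% were lower in NA MPs without overlap. Orc6 was not past the threshold without NA MP 3 (adjusted p = 0.083 from limma) or without WT MP 4 (0.0642). Orc4 had about the same difference, -0.17 with a 95% interval from -0.32 to -0.02, and an adjusted p of 0.0718 from limma, which became 0.0204 without NA MP 4. In GENCODE M21, Orc2 shares 1150 of 3857 exon bases with Nif3l1 and Orc1 376 of 3479 with Gm12743, both on the opposite strand. Orc4, Orc5 and Orc6 also share exon bases with other genes. The library kit does not mark strand, so these values are uncertain to that extent. Of the 3 licensing factors, Cdc6 (ENSMUSG00000017499, chr11:98907801-98923940, plus strand), the loader that joins ORC, had normalized counts of 543, 580, 540 and 585 in NA MPs and of 677, 655, 658, 644 and 669 in WT MPs. Every NA MP sample lay below every WT MP sample. Its log2 fold change was -0.23 (SE 0.0436, adjusted p = 3.34e-05 from limma). Cdt1, its partner in loading, had a mean of 1102 ± 24.7 in NA MPs and 1082 ± 51.4 in WT MPs, a log2 difference of 0.03 with an interval from -0.05 to 0.10. Gmnn, the inhibitor of Cdt1, passed the threshold at -0.13 (adjusted p = 0.0445 from limma) and lost it when NA MP 1, 2 or 3 or WT MP 1, 2, 3 or 4 was left out, with adjusted p-values from 0.0512 to 0.111.

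The ring that these factors load differed less. Mcm2 to Mcm7 were among the most abundant of the 49 genes, and 1 of the 6 was called lower, near the 17.3% over all tested genes. Mcm4 had normalized counts of 1757, 1846, 1902 and 1850 in NA MPs and of 1926, 2039, 1960, 1977 and 1969 in WT MPs, so that the groups did not overlap. Its log2 fold change was -0.10 (SE 0.0311, adjusted p = 0.00845 from limma), and once GC content and transcript length were corrected for, a step added after the data had been seen, it was -0.048 with an adjusted p of 0.212. Mcm6 (ENSMUSG00000026355, chr1:128331590-128359664, minus strand), the second most abundant member per length, had normalized counts of 4604, 4743, 4925 and 4669 in NA MPs and of 4700, 4768, 4586, 4813 and 4667 in WT MPs. The groups overlapped throughout, and the difference of 0.01 had an interval from -0.04 to 0.06. Mcm3 was at 0.03 (interval -0.03 to 0.08), Mcm7 at -0.05 (interval -0.11 to 0.00), Mcm5 at -0.06 and Mcm2 at -0.06. The last 2 passed the threshold under the GC and length correction (adjusted p = 0.0103 and 0.00283 from limma). Both also passed it as lower with library totals as the only scaling (adjusted p = 0.0302 and 0.043 from limma). The difference between the ORC genes and the ring was not tested.

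**Figure D2:**
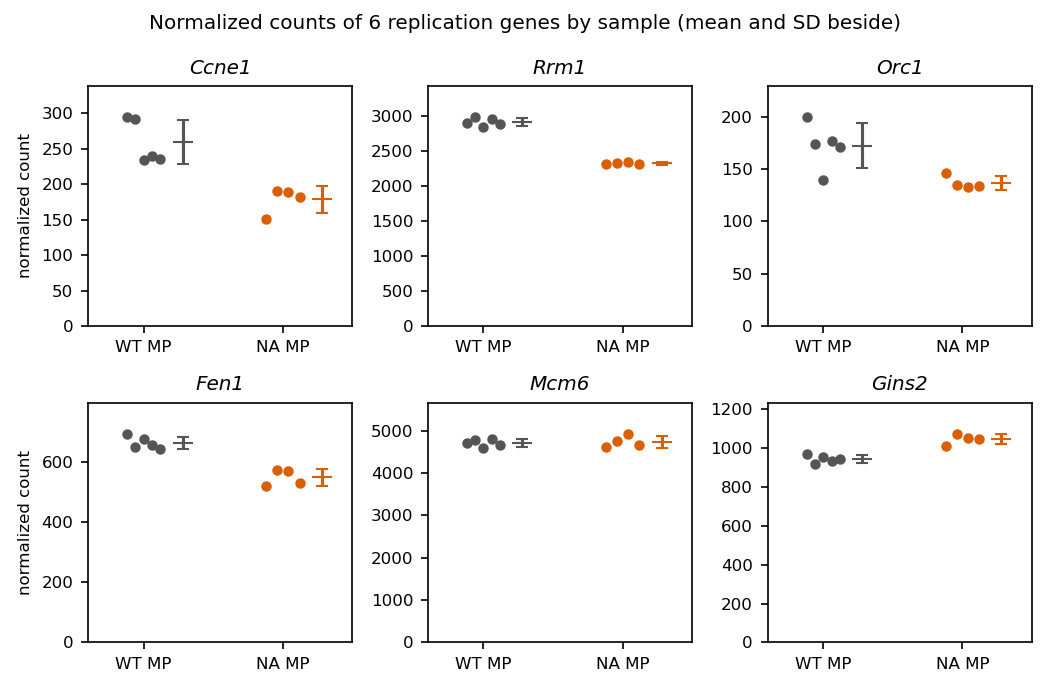
Normalized counts (y axis, from 0) of 6 genes in each sample, WT MPs in grey and NA MPs in orange, with the mean and SD beside the points. Ccne1, Rrm1 and Fen1 were lower in every NA MP sample, Orc1 overlapped in WT MP 3, Mcm6 overlapped throughout and Gins2 was higher in every NA MP sample.

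Among the 6 genes that activate the helicase, 2 fell and 1 rose. Over all tested genes 17.3% fell and 16.9% rose, so the 1 rise is near that share. Mcm10, which helps the helicase to start, had normalized counts of 592, 609, 648 and 611 in NA MPs and of 733, 723, 698, 701 and 686 in WT MPs, with no overlap. It fell by 0.20 on the log2 scale (SE 0.0425, adjusted p = 0.000165 from limma). The 4 GINS subunits, which form 1 complex, were not compared with each other by a test. Gins4 fell by 0.18 (adjusted p = 0.0106 from limma), Gins1 was at -0.15 (adjusted p = 0.0789, and 0.048 without WT MP 3), Gins3 at -0.01 and Cdc45, their partner on the helicase, at -0.04. Gins2 (ENSMUSG00000031821, chr8:120578633-120589304, minus strand) had normalized counts of 1010, 1073, 1049 and 1046 in NA MPs and of 971, 916, 953, 934 and 943 in WT MPs. All NA MP samples lay above all WT MP samples, and the log2 fold change was 0.15 (SE 0.0365, adjusted p = 0.00145 from limma). In GENCODE M21, 2758 of its 4097 exon bases also belong to Gse1 on the opposite strand, which rose by 0.14 (adjusted p = 0.00272 from limma). The library kit does not mark strand, so reads from these bases cannot be told apart, and the value of Gins2 is uncertain.

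Of the 8 polymerase and primase genes 4 fell and none rose, where 17.3% of all tested genes fell and 16.9% rose. Polymerase alpha with primase starts each strand, and its subunits Pola1 and Pola2 fell by 0.14 and 0.15, while Prim1 was at -0.10 (adjusted p = 0.0692 from limma, and 0.0155 without NA MP 4 or 0.0488 without WT MP 5) and Prim2 at -0.09. Pola1 was not past the threshold under the GC and length correction (-0.056, adjusted p = 0.237 from limma). Of polymerase epsilon, which copies the leading strand, Pole and Pole2 fell, and the small subunits Pole3 and Pole4, which are not among the 49 genes, were at -0.06 and -0.05 and not called. Pole2 had normalized counts of 194, 234, 212 and 210 in NA MPs and of 235, 235, 250, 262 and 242 in WT MPs, where NA MP 2 came close to the lowest WT MP. Its log2 fold change was -0.21 (SE 0.0678, adjusted p = 0.0152 from limma, and 0.0696 without NA MP 1). Pole had a log2 difference of -0.21 as well (adjusted p = 2.3e-05). Of polymerase delta, which copies the lagging strand, Pold1 was at 0.03 (interval -0.04 to 0.10) and Pold2 at 0.00 (interval -0.08 to 0.09), and neither was called. Outside the 49 genes, its subunit Pold3 fell by 0.22 (adjusted p = 3.28e-05 from limma, no overlap between the groups) and Pold4 rose by 0.34 (adjusted p = 0.000509). Pold3, Pole3 and Pole4 were named after their values were seen, and no test compared the complexes.

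At the sliding clamp, 1 of 6 genes fell, near the 17.3% called lower over all tested genes. Rfc4, a subunit of the clamp loader, had normalized counts of 317, 312, 348 and 346 in NA MPs and of 399, 422, 373, 364 and 385 in WT MPs, without overlap, and fell by 0.23 (SE 0.0568, adjusted p = 0.00129 from limma). It shares 194 exon bases with Eif4a2 on the opposite strand, which was at 0.08 (adjusted p = 0.107). Pcna, the clamp and the most abundant member per length, was at 2716 ± 68.2 in NA MPs and 2805 ± 107 in WT MPs, a log2 difference of -0.05 with an interval from -0.11 to 0.01. Rfc1, Rfc3 and Rfc5 lay between -0.06 and -0.07. Rfc2 was at 0.06, and 952 of its 6303 exon bases overlap Lat2, which was 2.69-fold higher in NA MPs, so this value is uncertain. None of the 3 RPA genes, whose products coat single-stranded DNA, was called. Rpa2, the farthest from 0 of them, had normalized counts of 822, 772, 822 and 744 in NA MPs and of 869, 837, 817, 799 and 786 in WT MPs, overlapping ranges with a difference of -0.06.

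Both genes of Okazaki fragment maturation fell, where 17.3% of all tested genes were called lower. Fen1 (ENSMUSG00000024742, chr19:10199132-10204169, minus strand), the nuclease that trims the flaps between fragments, had normalized counts of 520, 572, 570 and 530 in NA MPs and of 693, 649, 676, 655 and 644 in WT MPs. The highest NA MP stood well below the lowest WT MP. The log2 fold change was -0.28 (SE 0.0448, adjusted p = 3.31e-06 from limma). Most of its exon bases, 1909 of 2422, are shared with Gm10143 on the opposite strand, which fell by 0.29 (adjusted p = 0.00057), so the 2 values are not independent. Lig1, the ligase, was at -0.08 with an adjusted p of 0.0446 from limma, and it was past the threshold in 2 of the 9 leave-one-out fits, those without NA MP 3 and without WT MP 4.

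Nucleotide supply held the member with the smallest adjusted p. Rrm1 (ENSMUSG00000030978, chr7:102441695-102469771, plus strand), the large subunit of ribonucleotide reductase, had normalized counts of 2305, 2332, 2343 and 2309 in NA MPs and of 2896, 2978, 2844, 2960 and 2881 in WT MPs. The NA MP samples lay close together and all far below the WT MPs. Means were 2322 ± 18.1 (SD, n = 4) and 2912 ± 56.0 (SD, n = 5), a log2 difference of -0.33 (SE 0.0278, adjusted p = 5.27e-13 from limma), or 20.2% lower. Rrm2, the small subunit and the one that is degraded and remade in each cell cycle, fell by 0.19 (adjusted p = 1.68e-05), less than Rrm1, with no overlap between the groups. Dut, which removes dUTP, fell by 0.13 (adjusted p = 0.00447). Tyms, which makes thymidylate, was at -0.09 with an interval from -0.18 to 0.01, and Tk1, which recovers thymidine, at 0.05 with an interval from -0.03 to 0.13. The Tk1 exons overlap those of Afmid, which rose by 0.65, over 83 bases.

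Cyclin E, which drives Cdk2 at the start of S phase, carried the largest fall among the 49 genes. Ccne1 (ENSMUSG00000002068, chr7:38097984-38107534, minus strand) had normalized counts of 151, 191, 189 and 183 in NA MPs and of 295, 293, 234, 240 and 236 in WT MPs. NA MP 1 was lowest and WT MPs 1 and 2 stood above the other WT MPs, and the groups did not overlap. The mean was 179 ± 18.6 (SD, n = 4) against 259 ± 31.2 (SD, n = 5), a log2 difference of -0.53 (SE 0.0804, adjusted p = 1.63e-06 from limma), or 31.0% lower. Ccne2 fell by 0.21 (adjusted p = 0.0186) and was not past the threshold without NA MP 2 (adjusted p = 0.0572) or without NA MP 3 (0.1). It shares 609 exon bases with Ints8, which fell by 0.29. The CAF-1 genes, whose products place histones on new DNA, were not called. Chaf1a had normalized counts of 761, 800, 748 and 808 in NA MPs and of 813, 848, 812, 835 and 815 in WT MPs, which did not overlap but lay close, with a difference of -0.08 (adjusted p = 0.107). It shares 4648 of 8854 exon bases with Ubxn6, which rose by 0.19, so the value is uncertain. Chaf1b was at 0.00 with an interval from -0.10 to 0.09.

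**Figure D3:**
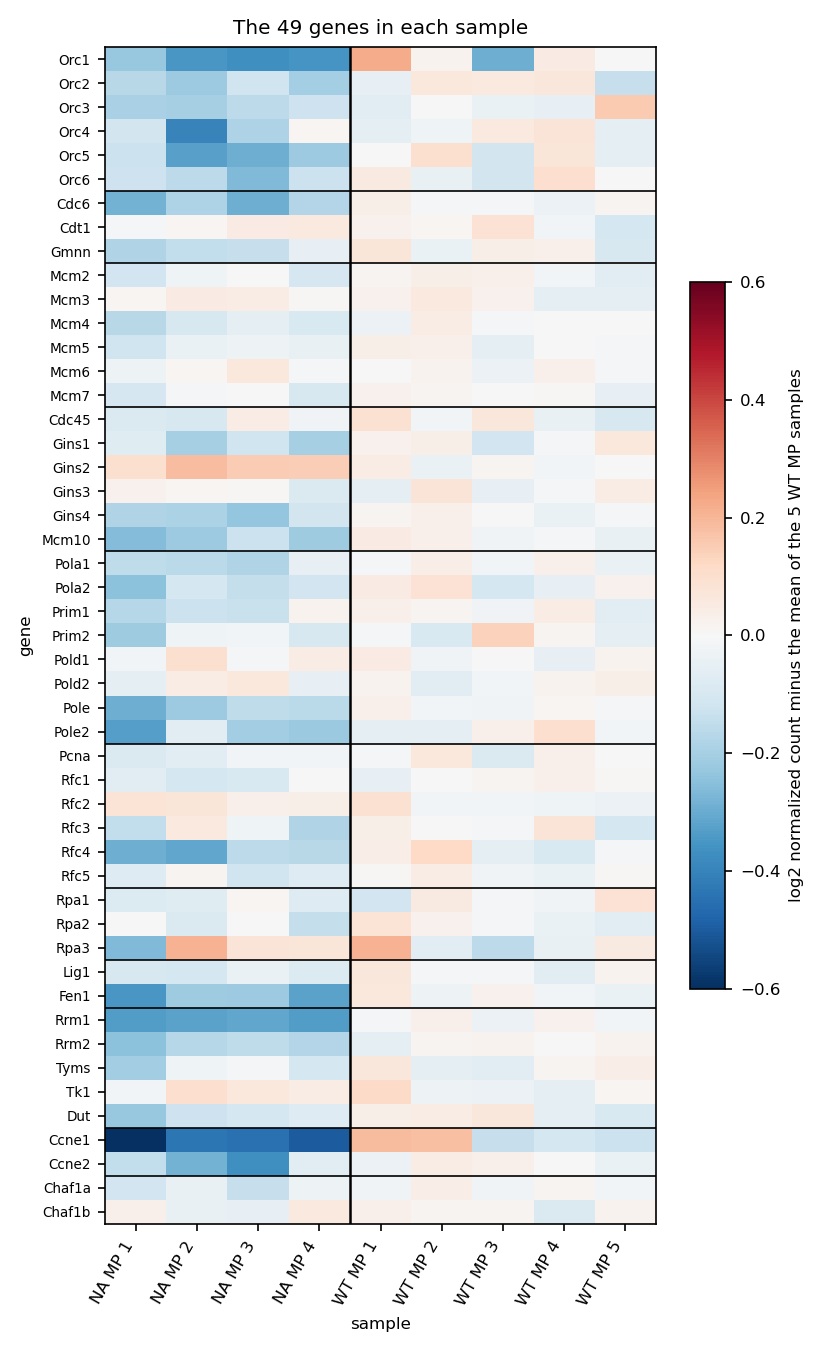
The 49 genes (rows, by role between black lines) in the 9 samples (columns, NA MPs left of the vertical line), as log2 normalized count minus the mean log2 value of the 5 WT MPs. Blue is lower and red higher than that mean, and the blue of Rrm1, Ccne1 and Cdc6 runs through all 4 NA MPs, where the Mcm genes stay pale.

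Over the 26 genes not called, the 95% intervals ran from -0.32 to 0.20 on the log2 scale, so changes of up to 19.8% lower or 14.5% higher are within them, and they are not shown to be equal in the groups. Of the 19 members with an exon that overlaps another gene, 10 fell and 1 rose, and of the 30 others 12 fell and none rose. The shares over all tested genes were 17.3% lower and 16.9% higher. Compared per length of the principal transcript, the levels in WT MPs spanned from 55.1 normalized counts per kb for Orc4 to 1848 for Pcna. Pcna, Mcm6 (1617) and Mcm7 (1239) led without overlap between neighbours, followed by Mcm5 (1101) and Mcm3 (1077), which overlapped. Mcm2 (882), Rrm1 (729), Dut (720), Rrm2 (699) and Tk1 (636) came next, and Rrm1, Dut and Rrm2 each overlapped the next in order. At the low end Orc5 (129), Ccne2 (70.7), Gins3 (58.6), Orc1 (57.2) and Orc4 followed each other, the last 3 with overlapping samples. All 6 ring genes, the lowest of them Mcm4 (550), ranked above Orc6 (290), the highest ORC gene.

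**Figure D4:**
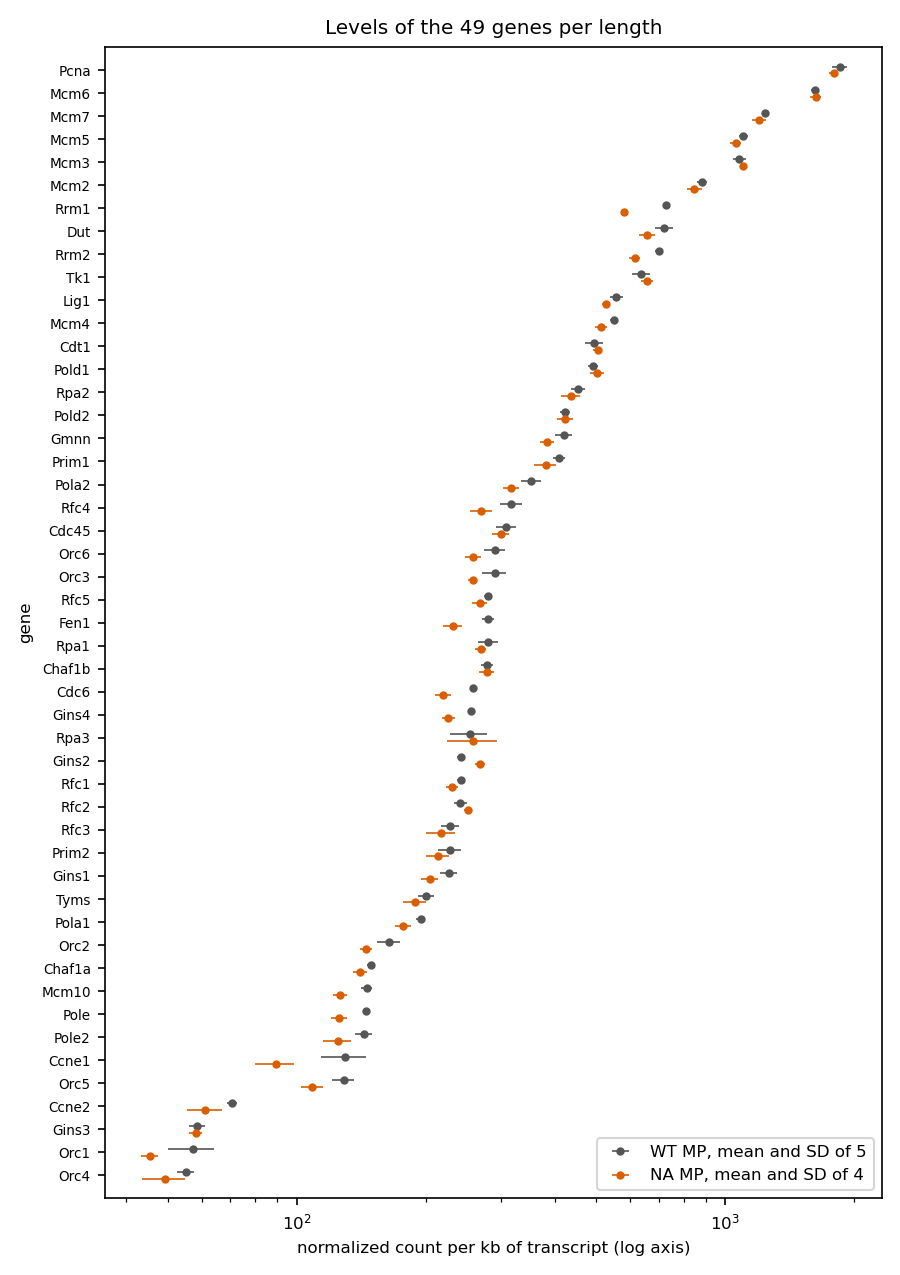
Levels of the 49 genes as normalized count per kb of transcript (x axis, logarithmic), with the mean and SD of WT MPs in grey and of NA MPs in orange, in the order of the WT MP levels. Pcna and 5 Mcm genes are at the top, Orc4, Orc1 and Gins3 at the bottom, and Rrm1 and Ccne1 show wide gaps between the groups.

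Other genes of the pathway were followed in lists drawn up by function. Over all tested genes 17.3% were called lower and 16.9% higher, and the counts below are to be read beside these shares. Of 41 origin firing and fork partners, 23 fell and 2 rose (median log2 fold change -0.11), and 15 fell under the GC and length correction. Donson, a fork protection factor, fell by 0.44 (adjusted p = 0.00027 from limma) and Recql4, a helicase needed for initiation, by 0.38, while Pold4, the smallest polymerase delta subunit, rose. Pclaf, which binds Pcna, was at 0.10 (adjusted p = 0.0375) and was not past the threshold when NA MP 3 or 4 or WT MP 1, 2 or 4 was left out (adjusted p from 0.0607 to 0.208). In fork repair and checkpoint, 11 of 16 fell and none rose (median -0.18), led by Brca1 (-0.30) and Brca2 (-0.23). Mitosis genes fell most widely, with 23 of 26 lower and none higher and a median of -0.20. Mki67, the proliferation marker, averaged 4034 normalized counts in NA MPs and 5447 in WT MPs, a fall of 0.43 (SE 0.0278, adjusted p = 1.17e-16 from limma), and Knl1, a kinetochore protein, fell by 0.36.

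Genes of the nucleotide pools outside the 49 were mixed. Of 17 genes of de novo purine and pyrimidine synthesis 8 fell and none rose (median -0.09), with Ppat, the first committed enzyme of purine synthesis, down by 0.26 and Ctps, which makes CTP, by 0.25. Of 18 other deoxynucleotide enzymes 2 fell and 2 rose, 11.1% each way, which is no more than the shares over all tested genes (17.3% and 16.9%). Mthfd1, which supplies one-carbon folates, fell by 0.52 (1266 against 1814 normalized counts, adjusted p = 2.37e-15 from limma) and kept its call in every alternative. The other 3 calls lay near the threshold, with adjusted p-values from 0.0328 to 0.0359 from limma. Dctd, a deaminase, was at -0.16 and lost its call without NA MP 1 or 4 or WT MP 4 or 5 (adjusted p from 0.0755 to 0.126). The salvage kinases Dck (0.14) and Dguok (0.22) both lost theirs without NA MP 2 or 3 or WT MP 3, 4 or 5, and Dguok also without NA MP 1 (adjusted p from 0.0552 to 0.218 for Dck and from 0.0607 to 0.0978 for Dguok). With the replicate number as a block, which is not a pairing of these samples, the list held 1 lower and 0 higher. Among 21 genes of the E2F, RB and S phase kinase list 5 fell (23.8%) and 1 rose (4.76%), where 17.3% fell and 16.9% rose over all tested genes. The counts were 3 lower and 3 higher without NA MP 1, 2 lower without WT MP 2, and 2 higher without WT MP 1 or without WT MP 4. E2f4, mostly a repressor, fell by 0.28 and cyclin A2 (Ccna2) by 0.24, while E2f2, an activator, rose by 0.43 (adjusted p = 0.00063 from limma). In the list of CDK inhibitors and D cyclins, 4 of 8 tested genes were higher and 1 lower (median 0.18), and the higher ones included a D cyclin. Cdkn1a, the p21 inhibitor, was at 104 normalized counts in NA MPs and 50.6 in WT MPs, a rise of 1.01 (adjusted p = 6.72e-07 from limma), and Cdkn2c rose by 0.52. The inhibitor Cdkn1b rose by 0.27. The D cyclins differed in direction, with Ccnd1 higher by 0.33 (adjusted p = 0.000213 from limma), Ccnd2 lower by 0.19 and Ccnd3 at 0.09 and not called. Immediate early genes, which rose in the same samples, and the pro-B and erythroid shifts given above stand beside all of these counts.

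**Figure D5:**
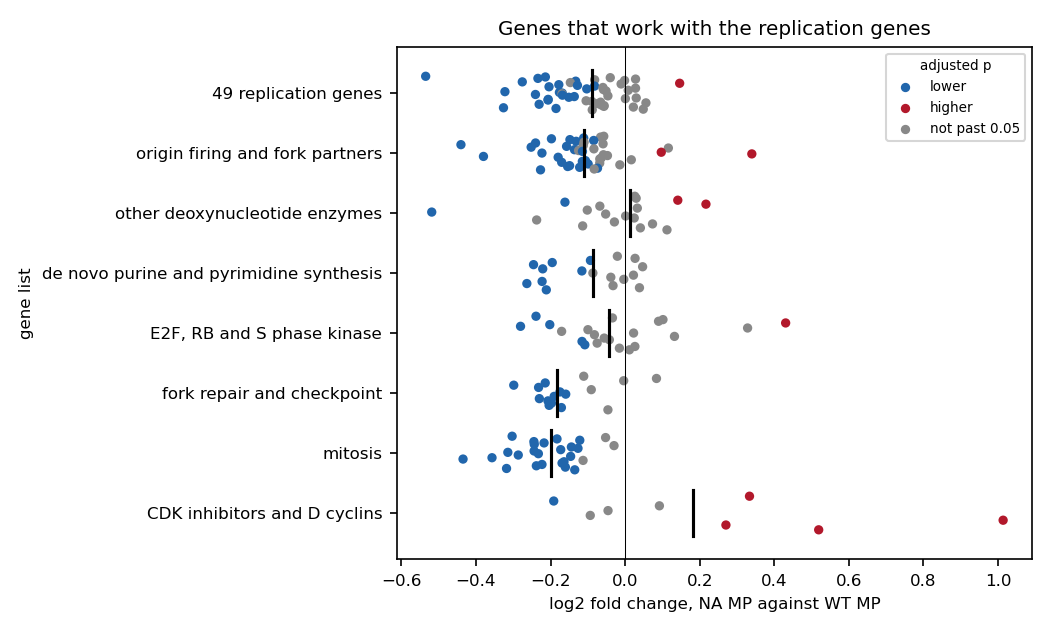
Log2 fold change (x axis) of each tested gene of the 49 and of 7 lists of the wider pathway (y axis), with blue and red points for genes past an adjusted p of 0.05 and a black bar at the median. Mitosis and fork repair lie almost wholly left of 0, and the CDK inhibitor and D cyclin list has its median at 0.18.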

How the data were processed

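RNA-seq libraries (TruSeq, unstranded, NextSeq 500) of 4 NA MP and 5 WT MP samples were processed by the authors with bcl2fastq and RSEM (genome build mm10), and the submitters' notes and the methods also name DESeq2. The RSEM version, the annotation and the strand setting are not given in the sources used here. The signal values in the deposited table are RSEM gene counts divided by a size factor per sample, although the table is described as raw counts: between 97.2% and 97.6% of the values above 0 in a column were whole multiples of 1 step, within 0.01 reads, and the steps matched median-of-ratios size factors within 0.17%. A count test had been planned on the assumption of undivided counts, so limma 3.58.1 in R 4.3.3 (trend and robust options) was applied to log2 of the value plus 1 instead, over the 11987 genes with a value of at least 10 in at least 4 samples. Scripts were tested on simulated data.

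Gene names matched 32916 of 37980 identifiers. Coordinates, transcript lengths and exon overlaps came from GENCODE M21 (GRCm38), promoters from RefSeq. Every member is reported by role. Values in each sample are given for members past the threshold with an absolute log2 fold change of at least 0.3, for the farthest from 0 in each role and for any called higher, and from each pathway list up to 2 rises and 2 falls are named. Other genes shown are partners of exon overlap, cell type markers and the promoters picked as examples. Cdkn1b, Ccnd1 and Ccnd3 were named after their values were seen. The members and lists were chosen with earlier results of these data known. The groups share replicate numbers, but same-numbered samples did not deviate together (correlations -0.0204 to 0.0573), so samples were not paired. No sample was excluded.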

Additional observations from a re-analysis of the deposited data

Results flagged for a closer look

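Each member's normalized counts, and their sum, were searched in each group for a sample set apart from the others by Dixon's test, 100 groups in all. Chance sets apart about 1 in 20, or 5 of 100, and 4 were found. NA MP 1 had the highest Orc1 value of its group, 146 where the others lay between 132 and 134. In WT MPs, sample 1 was highest for Rfc2 at 1280, where the others lay between 1175 and 1190, and sample 4 lowest for Chaf1b at 502, where the others lay between 539 and 544. NA MP 3 was highest for Rpa1, with 1426 normalized counts where the others lay between 1338 and 1345.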

How the results depend on the processing

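The count of members called lower, 22, ran from 16 at an adjusted p of 0.01 to 26 with library totals as the only scaling, and 1 member was called higher in every alternative. Leaving out each sample in turn gave 19 to 23 lower and 1 higher. With a replicate block on numbers 1 to 4, which leaves out WT MP 5, 21 were lower and 1 higher, and the only change of call was the loss of Lig1. Of 4 NA MP samples 1 correlated best with the WT MP of its own number. Over the 18 other fits at 0.05, 15 of the 22 members stayed lower and Gins2 stayed higher in all, and 21 of the 26 others were called in none. Orc6, Gmnn, Mcm4, Pola1, Pole2, Lig1 and Ccne2 lost their call and Orc4, Mcm2, Mcm5, Gins1 and Prim1 gained one in at least 1 fit, and no called direction reversed. Among the lists, origin firing and fork partners moved from 23 lower to 13 at 0.01 and to 15 with the GC and length correction, and from 2 higher to 1 in 8 settings. Other deoxynucleotide enzymes moved between 1 and 4 lower and between 0 and 4 higher, the E2F list to between 2 and 3 lower and up to 3 higher, and the CDK inhibitor list to 2 lower. The cause was not tested. The pseudocount of 5 and the GC and length correction were chosen after seeing the data. DESeq2, planned as an alternative, is not reported, since the values as deposited were already divided by size factors. Reads recovered from the steps were used for depth and not for a count test. Depth limits Gins3, Orc1 and Rpa3 most, whose values are the smallest.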
